A study of Mus musculus with 10 samples.

Results

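The genes of the proteasome, the protease complex that degrades ubiquitin-tagged proteins, were followed in 10 RNA-seq libraries of sorted mouse macrophages. Members were all rows whose symbol is Psma, Psmb, Psmc, Psmd or Psme followed directly by a digit, which gave 44 of the 12535 genes of the table. They comprise 8 alpha ring genes (Psma), 3 constitutive catalytic beta genes (Psmb5, Psmb6, Psmb7), 4 other beta genes, 3 immunoproteasome genes (Psmb8, Psmb9, Psmb10), 20 genes of the 19S cap or its assembly (Psmc, Psmd), and 5 activator genes (Psme). The last of the 44, Psmc3ip, matched by name alone, since it encodes a recombination factor and not a proteasome subunit. Cells were sorted as CD45+CD11b+F4/80+. Resident macrophages came from the healthy pancreas of C57/BL6 WT mice (n = 4). Control tumour-associated macrophages (control TAM, n = 3) came from C57/BL6 Ahr fl/fl mice and cKO-labelled TAM (n = 3) from C57/BL6 Ahr fl/fl Lys M mice, in both cases 14 days after orthotopic implantation of MT4, a KPC organoid line of pancreatic ductal adenocarcinoma (PDAC). Both TAM groups thus carry the floxed Ahr allele, which the resident group lacks. LysM-Cre is active in neutrophils as well as in macrophages, and the tumours come from 1 implanted line.

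The 20S core is a barrel of stacked rings, with alpha subunits forming the gated outer rings and beta subunits the inner rings that hold the cleaving sites. The 19S cap recognises ubiquitin, removes it and unfolds the substrate with its ATPase ring. In cells exposed to interferon gamma, and constitutively in many immune cells, Psmb8, Psmb9 and Psmb10 replace Psmb5, Psmb6 and Psmb7 as new cores assemble, which changes the peptides made. Together with the activator PA28 (Psme1 and Psme2) the immunoproteasome is best known for supplying peptides to MHC class I molecules.

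Short stretches of promoter sequence are shown for 5 of the 11 members that hold a motif of the interferon or stress pathways, since these pathways are the textbook regulators of the genes described below. The 5 are the catalytic and PA28 subunits with a match, and Psmd2 as the one further gene that shares the motif found in Psmb8. Windows of 250 bases before to 50 bases after a start site, from RefSeq on GRCm38.p6, were found for 37 of the 44 genes. The windows were searched on both strands for the GAS motif of the interferon gamma pathway (TTCNNNGAA), the ISRE core bound by interferon regulatory factors (GAAA, any 2 bases, GAAA), the ARE core bound by NRF1 and NRF2 (TGACNNNGC) and the CCAAT box (CCAAT), none of which contains another. Each stretch below holds 30 bases of the gene's own strand, 5′ to 3′, with the match in capitals. The Psmb8 match (GAS, chr17:34198088-34198117, plus strand) starts 97 bases before the RefSeq start and lies within an annotated exon. The Psmd2 match (GAS, chr16:20651646-20651675, plus strand) starts 5 bases after the start. In Psme1 (ISRE core, read on the opposite strand, chr14:55578493-55578522, plus strand) the match starts 10 bases after it. Those of Psmb5 (ARE core, chr14:54618023-54618052, minus strand) and Psmb6 (ARE core, chr11:70525338-70525367, plus strand) start 47 and 9 bases before it. The stretches of Psmd2 and Psme1 overlap annotated exons too. That of Psmb6 touches an exon only at its last base, and that of Psmb5 overlaps none.
Psmb8: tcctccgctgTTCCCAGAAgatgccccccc
Psmd2: gcgcgtggccTTCTGGGAAaaggggcggtg
Psme1: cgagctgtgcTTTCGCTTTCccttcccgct
Psmb5: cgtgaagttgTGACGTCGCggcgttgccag
Psmb6: ctaaagagagTGACGGAGCgctttacgacg

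The GAS motif was found in 2 of the 37 member genes (5.41%) and in 8.30% of all 32851 windows. The ISRE core was found in 4 (Psmb3, Psmd4, Psmd9 and Psme1), or 10.8%, and in 3.44% of all windows. The ARE core was found in 6 (Psmb5, Psmb6, Psmc6, Psmd12, Psmd9 and Psme4), or 16.2%, and in 12.4% of all windows. The CCAAT box was found in 14, or 37.8%, and in 37.4% of all windows. Members were counted by gene and the background by window, from 27025 genes, so the units of these shares differ. A match is a match of letters and no more. The windows of Psmb9, Psmb10 and Psme2 held none of the first 3 motifs.

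Depth recovered from the deposited values was 10311296 to 26455650 reads per library. The Ahr gene targeted in this model stood at 10.2, 11.2 and 9.65 FPKM in cKO-labelled libraries, against 7.11, 6.91 and 7.51 FPKM in control TAM and 3.84, 4.46, 4.29 and 4.16 FPKM in resident ones. It was thus highest in the group meant to lack it. A gene-level FPKM includes reads from exons that Cre leaves in place and is no check of the deletion; the group therefore keeps its label as its name. All 12 macrophage markers were detected, with a summed level of 47084 to 48215 FPKM in resident, 31623 to 31788 in control TAM and 24667 to 25052 in cKO-labelled libraries. Of the 12, 4 were higher and 8 lower in control TAM than in resident libraries, and 3 higher and 7 lower in cKO-labelled than in control TAM. Over all tested genes 39.0% were called higher and 38.1% lower in the first of these comparisons, and 20.5% and 19.1% in the second. These shares are the background for every marker count in this paragraph, and some of the counts lie near them. Lyz2, the gene whose locus carries the Cre, made up most of the sum in resident and control TAM, and without it the sum was 19300 to 20532, 11693 to 11978 and 13162 to 13476 FPKM, so that the cKO-labelled libraries lay above control TAM. Markers of other cells moved with the groups. The sum of 27 genes of pancreatic acinar cells was 35763 to 38020 FPKM in resident, 119 to 128 in control TAM and 453 to 472 in cKO-labelled libraries, and of 26 tested all were lower in control TAM than in resident libraries and 23 were higher in cKO-labelled than in control TAM. In control TAM 1 of them, Amy2a5, was at 0 in every library. The sum of 10 neutrophil genes was 360 to 369, 1291 to 1318 and 1630 to 1792 FPKM, with 8 of 10 higher and 1 lower in control TAM and 7 of 10 higher and 1 lower in cKO-labelled TAM. The sum of 5 B and plasma cell genes was 1354 to 1375, 87.2 to 96.1 and 242 to 246 FPKM, and that of 9 epithelial genes 83.7 to 95.6, 270 to 277 and 273 to 286. Of the 9 epithelial genes 8 were higher and 1 lower in control TAM, and 3 higher and 1 lower in cKO-labelled TAM. Tff2, the gene lower in control TAM (78.6 to 0.285 FPKM), made up most of the resident sum. Krt18 went from 3.85 to 93.2 FPKM and Krt19 from 1.76 to 82.2 FPKM. The lists for T and NK cells, dendritic cells, eosinophils, fibroblasts and endothelial cells each summed to at most 165 FPKM in any library, and the eosinophil gene Prg2 was at 0 in every resident library. These lists moved with the groups too. Fibroblast genes were at 37.5 to 41.2, 162 to 165 and 123 to 128 FPKM in sum in the 3 groups. Of 6 tested, 5 were higher and 0 lower in control TAM, and 3 higher and 2 lower in cKO-labelled TAM. Eosinophil genes were at 45.7 to 59.5, 88.7 to 91.7 and 132 to 133. Of these 5, 4 were higher and 1 lower in control TAM, and 4 higher and 0 lower in cKO-labelled TAM. The 1 lower was Ear2 (50.7 to 14.9 FPKM), which made up most of the resident sum, while Ccr3 went from 0.315 to 21.3 FPKM. Endothelial genes were at 3.48 to 3.86, 7.56 to 8.73 and 27.5 to 29.2 (2 of 3 tested higher in control TAM, 3 of 3 in cKO-labelled TAM). Dendritic cell genes were at 140 to 153, 22.1 to 23.3 and 48.7 to 50.1 FPKM in sum (3 of 5 lower and 1 higher in control TAM, 2 of 5 higher in cKO-labelled TAM), and T and NK cell genes at 29.7 to 32.4, 15.6 to 18.3 and 24.4 to 25.9 (6 of 9 higher and 2 lower, then 6 of 9 higher). Cd2, lower in control TAM (21.7 to 1.76 FPKM), made up most of the resident sum for T and NK cells. The part of these cells in the results below was not tested.

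In all, proteasome genes took up 0.561% to 0.573% of the summed FPKM of a resident library, 1.11% to 1.13% in control TAM and 1.07% in each cKO-labelled library. The 2 TAM groups both lay clear of the resident group, and close to each other. In summed FPKM the members stood at 2985 to 3059 in resident, 5142 to 5219 in control TAM and 5182 to 5294 in cKO-labelled libraries. By sum the 2 TAM groups overlapped, so the lower cKO-labelled share depends on the library totals, which differ between groups. FPKM is a level per gene length, so levels of different genes can be set side by side, though which lengths the authors used is not stated in the sources used here. By that measure the most abundant member in resident libraries was Psmb2, a core subunit without a cleaving site (198 FPKM), and Psmb8 was the fourth. Psmb8 was the most abundant member in both TAM groups. Psme2 moved from rank 14 in resident to rank 5 in control TAM and rank 6 in cKO-labelled TAM. In sorted bulk cells, a gene that falls because fewer cells of a type are present cannot be told apart from one with less RNA per cell.

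**Figure D1:**
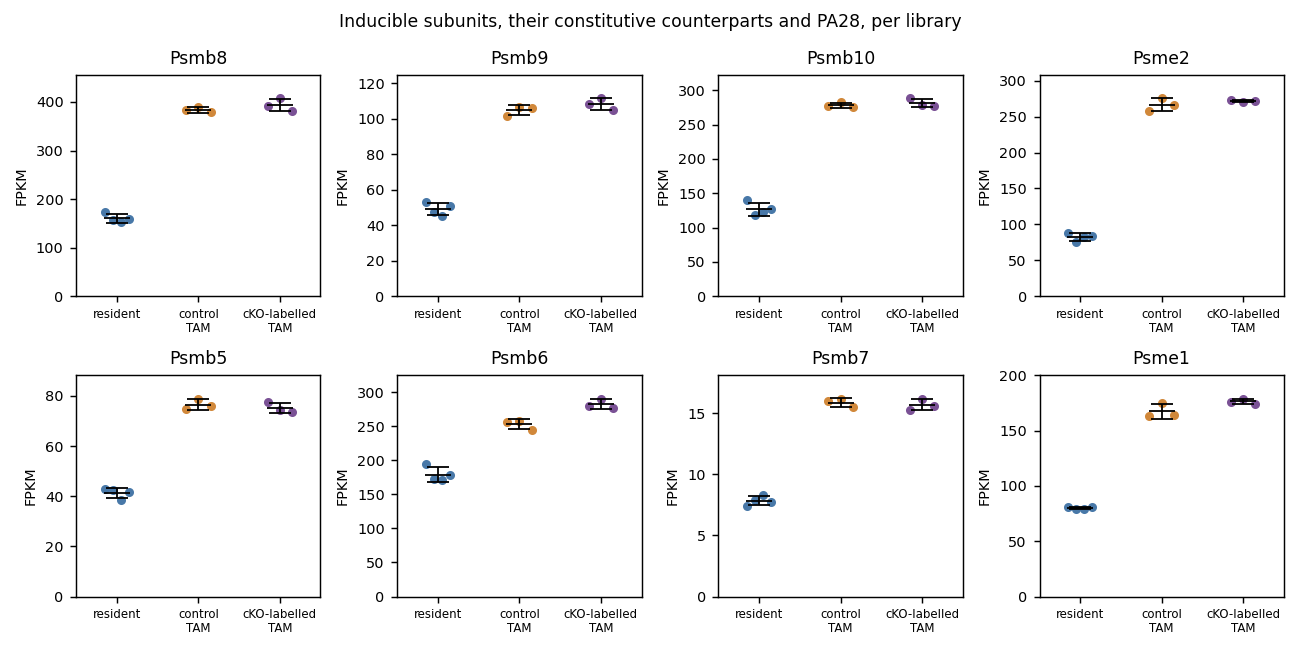
FPKM (linear axes from 0) of the immunoproteasome genes, their constitutive counterparts, Psme1 and Psme2 in each of 10 libraries, one point per library, with mean and SD per group. For each of these genes all control TAM points lie above all resident points, as for Psmb8 with 378 to 391 against 152 to 174 FPKM.

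Macrophages of control tumours were first compared with those of the healthy pancreas. All 3 immunoproteasome genes were higher in control TAM, by 2.39-fold for Psmb8, 2.20-fold for Psmb10 and 2.13-fold for Psmb9. The PA28 genes Psme2 and Psme1 were higher by 3.24-fold and 2.09-fold. The standard core and the 19S cap were also higher, by less at the median of each class. Of the 44 members 42 passed the test higher and 0 lower, against 39.0% of all tested genes called higher and 38.1% called lower.

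Psmb8, which carries the chymotrypsin-like site of the immunoproteasome, was at 174, 157, 152 and 159 FPKM in resident libraries and at 384, 391 and 378 FPKM in control TAM. The groups lay far apart and each was tight (160 ± 9.21 FPKM, SD, n = 4, and 384 ± 6.12 FPKM, SD, n = 3). On the log2(FPKM + 1) scale, used for all differences below, Psmb8 was higher by 1.26 ± 0.04 (SE, limma adjusted p = 6.42e-14). At least 3250 recovered reads stood behind each of its resident values.

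Psmb9, the caspase-like position's inducible subunit, was at 53.3, 47.4, 45.1 and 50.6 FPKM in resident libraries and at 102, 107 and 106 FPKM in control TAM. By FPKM it was the least abundant of the 3 in every library. That order depends on the lengths used, with longest annotated transcripts of 2884 bases for Psmb9, 1907 for Psmb8 and 1311 for Psmb10. In recovered reads the lowest resident value was 1482 for Psmb9 and 1680 for Psmb10. The log2 change of Psmb9 was 1.08 ± 0.05 (adjusted p = 6.84e-12). Psmb10, of the trypsin-like position, was at 140, 118, 122 and 127 FPKM in resident libraries and at 277, 283 and 276 FPKM in control TAM, with no overlap and a log2 change of 1.13 ± 0.04 (adjusted p = 1.08e-12). Psmb9 (chr17:34181987-34187764, minus strand) and Psmb8 (chr17:34197721-34201454, plus strand) flank the peptide transporter gene Tap1 (chr17:34187553-34197225, plus strand) in the MHC region, in GENCODE M21 on GRCm38. The start regions of Psmb9 and Tap1 overlap there on opposite strands, and the libraries carry no strand, so reads in the overlap could count for either gene.

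The constitutive subunits that these 3 replace were higher too. Psmb5, the counterpart of Psmb8, was at 42.9, 42.4, 38.5 and 41.6 FPKM in resident libraries and 74.6, 78.9 and 76.1 in control TAM, a log2 change of 0.87 (adjusted p = 1.53e-11). Psmb6, the counterpart of Psmb9, was at 195, 172, 171 and 178 FPKM in resident libraries and 256, 258 and 245 FPKM in control TAM, with a log2 change of 0.50 (adjusted p = 1.79e-08). Its groups did not overlap either, but its change was the smallest of the 6 catalytic genes. Psmb7, the counterpart of Psmb10, was at 7.38, 7.90, 8.27 and 7.73 FPKM in resident libraries and 16.0, 16.1 and 15.5 FPKM in control TAM, with a log2 change of 0.93 (adjusted p = 1.12e-10).

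The balance within each pair was therefore measured as the inducible subunit's share of the pair's summed FPKM. The share of Psmb8 with Psmb5 was 80.2%, 78.8%, 79.8% and 79.2% in resident libraries and 83.7%, 83.2% and 83.2% in control TAM. The groups did not overlap, and the means differed by 3.88 percentage points (exact two-sided permutation p = 0.0571, adjusted over 6 tests 0.171). The share of Psmb9 with Psmb6 was 21.5%, 21.6%, 20.8% and 22.1% in resident libraries and 28.4%, 29.3% and 30.1% in control TAM. This was the widest gap of the 3 pairs, at 7.74 percentage points, again with no overlap (exact permutation p = 0.0571, adjusted 0.171). With 4 libraries against 3, this test cannot give a p below 0.0571. The share of Psmb10 with Psmb7 was 94.2% ± 0.608 (SD, n = 4) in resident libraries and 94.6% ± 0.0802 (SD, n = 3) in control TAM, and the groups overlapped (exact permutation p = 0.343, adjusted 0.412). Its resident values ran from 93.7% to 95.0%. The annotated Psmb7 has a longest transcript of 2849 bases, so the level of Psmb7, and with it the height of this share, depends on the length the authors divided by, while the ratio of its levels between groups does not. The same holds for the height of the Psmb9 share, with 2884 bases for Psmb9 and 966 for Psmb6. Pseudogene copies of Psmb5, Psmb6 and Psmb7 are annotated, and reads shared with them could be split by the authors' counting.

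**Figure D2:**
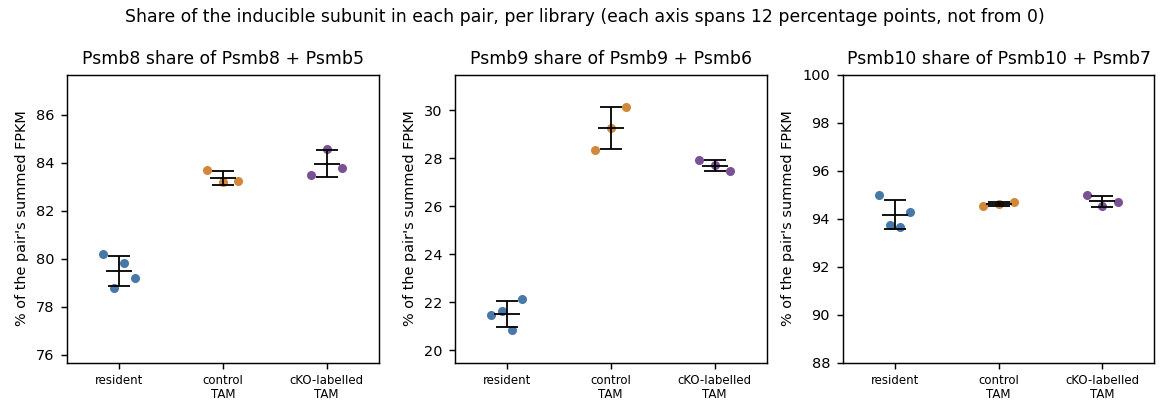
Share of the inducible subunit in the summed FPKM of its pair (percent), one point per library, with mean and SD per group, each panel spanning 12 percentage points and not starting at 0. The control TAM points of the Psmb8 and Psmb9 pairs lie above every resident point, and those of the Psmb10 pair lie within the resident range.

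The 2 subunits of PA28 alpha and beta, the interferon-induced ring that opens the core's gate, showed the first and the seventh largest change of the 44. Psme2 was at 88.0, 75.3, 81.9 and 83.9 FPKM in resident libraries and at 258, 276 and 267 in control TAM, a log2 change of 1.69 (adjusted p = 4.18e-15). Psme1 was at 80.9, 79.5, 79.1 and 81.1 FPKM in resident libraries and at 163, 175 and 164 in control TAM, with a log2 change of 1.05 (adjusted p = 4.77e-14). The subunits stood at like levels in resident libraries, and Psme2 stood above Psme1 in each control TAM library. Psme2b, a retrogene copy of Psme2 whose reads may be shared with it, was at 7.73 ± 0.635 FPKM (SD, n = 4) and 13.9 ± 1.38 FPKM (SD, n = 3). The activators that are not interferon-induced were higher by less. Psme3, the nuclear PA28 gamma, was at 31.8, 32.1, 35.8 and 34.7 FPKM in resident libraries and 45.8, 47.7 and 46.7 in control TAM, a log2 change of 0.47. Psme4, the PA200 activator, was at 2.11, 1.95, 2.57 and 2.33 FPKM and at 3.61, 2.60 and 3.51 FPKM, so the lowest control TAM library stood just above the highest resident one (log2 change 0.38).

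The rest of the core moved the same way. Of the 15 standard core genes (alpha ring and constitutive or non-catalytic beta) 14 rose and 0 fell by limma (14 and 0 at an unadjusted p under 0.05), with a median log2 change of 0.77. Over all 11127 tested genes 39.0% were called higher and 38.1% lower. At an unadjusted p under 0.05 these were 4414 and 4318 genes. The largest change of the alpha ring was that of Psma6, at 129, 142, 150 and 147 FPKM in resident libraries and 318, 313 and 304 in control TAM (log2 change 1.13). Psma8, a testis-specific alternative alpha subunit, did not pass the test (log2 change 0.20, adjusted p = 0.0755), at 1.65 ± 0.188 FPKM (SD, n = 4) and 2.03 ± 0.151 (SD, n = 3), with as few as 35 recovered reads in a resident library. Among the non-catalytic beta subunits the changes ran from Psmb1 (129 to 200 FPKM, log2 change 0.63) to Psmb4 (61.8 to 111 FPKM, log2 change 0.83).

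The 19S genes were also higher. Of 20 genes 19 rose and 0 fell, with a median log2 change of 0.46. The shares over all tested genes, for this and the counts below, were 39.0% higher and 38.1% lower. All 6 ATPases of the unfolding ring rose, with a median of 0.35. They ran from Psmc3 (125, 120, 116 and 116 FPKM in resident libraries, 132, 133 and 127 in control TAM, log2 change 0.13) to Psmc6 (27.9, 35.4, 35.6 and 33.3 FPKM against 52.4, 52.3 and 52.7, log2 change 0.66). Of the non-ATPases all 11 rose, led by the lid subunit Psmd8, at 70.5, 69.3, 68.7 and 67.9 FPKM in resident libraries and 153, 150 and 141 in control TAM (log2 change 1.09). Psmd14, the deubiquitinase that strips ubiquitin chains from substrates, went from 45.5 to 91.9 FPKM and lay just under a doubling of FPKM + 1. Of the 3 assembly chaperones that leave the finished cap, Psmd9 and Psmd10 rose. The other, Psmd5, stood at 14.9, 15.9, 14.9 and 16.5 FPKM in resident libraries and 16.1, 16.3 and 15.02 in control TAM, with a log2 change of 0.02 (95% interval -0.09 to 0.14, adjusted p = 0.719).

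**Figure D3:**
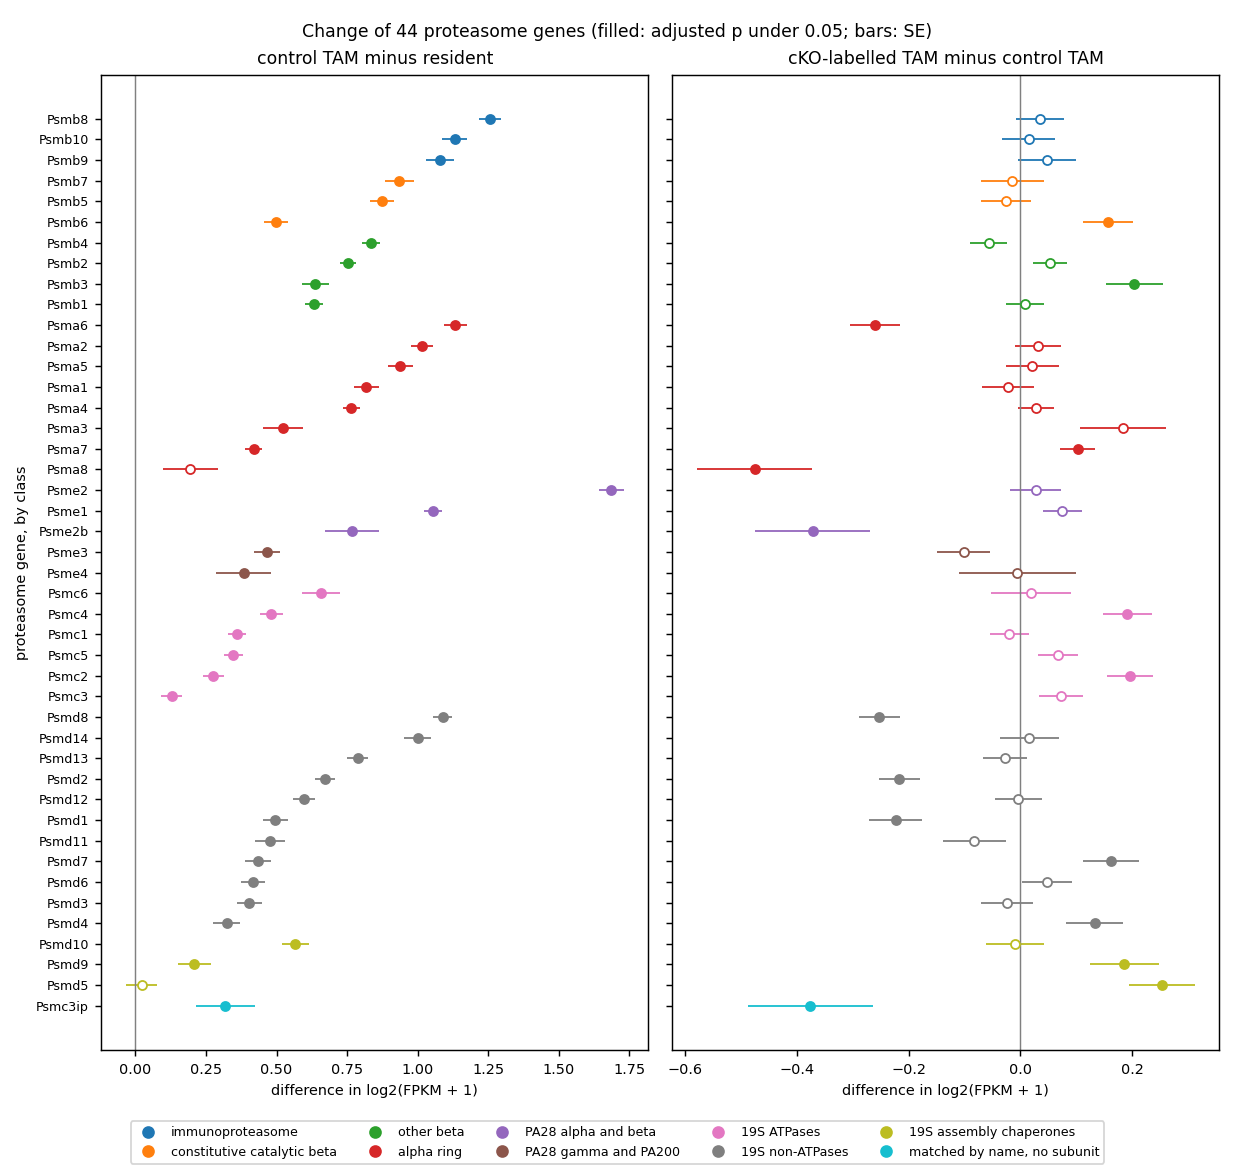
Difference in log2(FPKM + 1) of the 44 genes (points, with SE as bars; filled where the adjusted p is under 0.05), ordered by class, for control TAM minus resident (left) and cKO-labelled minus control TAM (right); the horizontal scales differ. On the left all points but Psma8 and Psmd5 are filled and to the right of 0, and on the right 9 are filled above 0 and 7 below.

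Over all members the median log2 change was 0.62, against 0.00 over the 11127 tested genes, and the changes ran from 0.02 to 1.69. The groups did not overlap for 43 of the 44 genes, all higher in control TAM, against 37.3% of all tested genes without overlap and higher and 36.5% without overlap and lower. A change of at least 2-fold on that scale was reached by 8 members (Psme2, Psmb8, Psma6, Psmb10, Psmd8, Psmb9, Psme1 and Psma2) against 9.98% of all tested genes, and by none in the other direction, against 6.95%. By class the medians were 1.13 for the immunoproteasome genes, 0.87 for their 3 counterparts, 0.77 for the standard core and 0.46 for the 19S genes. Differences between these classes were described and not tested. In summed FPKM the immunoproteasome genes went from 336 ± 21.4 to 767 ± 10.9, the standard core from 1372 ± 8.08 to 2326 ± 4.14 and the 19S genes from 1110 ± 9.70 to 1583 ± 20.2 (SD, n = 4 and n = 3).

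The tests above rest on the spread between these libraries, and whether each came from a separate mouse is given by the series text only as mouse numbers per group. Tumour, genotype (WT against Ahr fl/fl) and the markers of other cells differ together between these groups and cannot be told apart. The summed FPKM of a library was 529066 to 544670 in resident and 459374 to 463004 in control TAM. With every library rescaled to a common total, which raises the median change of all genes by 0.18, all 44 members were called higher, and the share of calls over all genes that were higher rose from 50.6% to 66.2%.

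**Figure D4:**
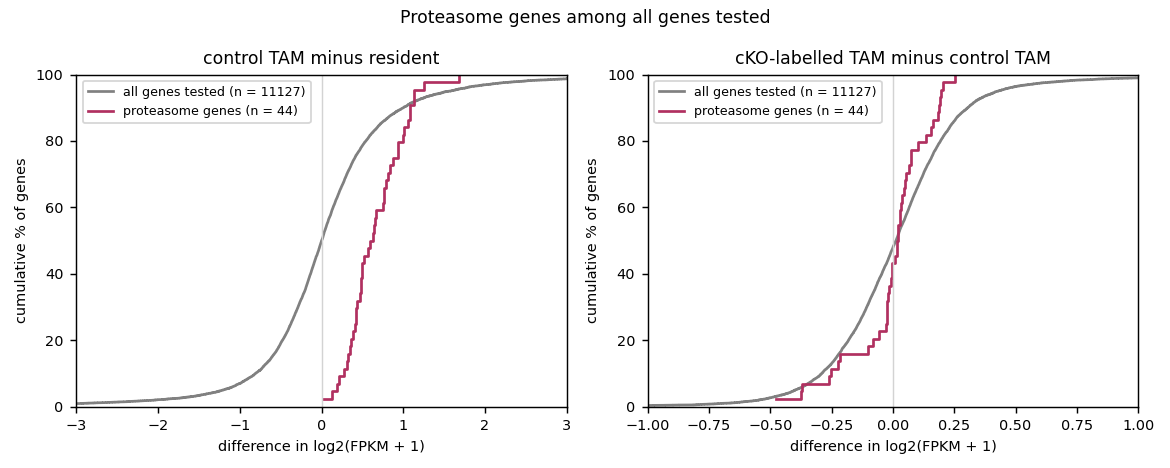
Cumulative share (percent) of genes by difference in log2(FPKM + 1) for the 44 proteasome genes and for all tested genes, in control TAM minus resident (left) and cKO-labelled minus control TAM (right). On the left the proteasome curve lies to the right of that of all genes over most of its course and crosses it among the largest changes, with medians of 0.62 and 0.00, and on the right the medians are 0.02 and 0.01.

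The second comparison set cKO-labelled TAM, of the Lys M genotype meant to delete Ahr in myeloid cells, against control TAM. It uses the control TAM libraries of the first comparison again. None of the 3 immunoproteasome genes passed the test, and neither did Psme1 or Psme2. Other members moved both ways by small amounts. Of the 44 members 9 were higher and 7 lower in cKO-labelled TAM, against 20.5% and 19.1% of all tested genes, and the median change was 0.02 against 0.01 over all genes. The members were thus called about as often as genes at large. For 10 members all cKO-labelled libraries lay above all control TAM libraries and for 9 below, against 25.9% and 25.5% of all tested genes.

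Psmb8 was at 392, 408 and 381 FPKM in cKO-labelled TAM, overlapping the control TAM libraries, with a log2 change of 0.04 (95% interval -0.06 to 0.13, adjusted p = 0.541). Psmb9 was at 108, 111 and 105 FPKM (log2 change 0.05, interval -0.06 to 0.16, adjusted p = 0.502) and Psmb10 at 288, 278 and 278 (log2 change 0.01, interval -0.09 to 0.12, adjusted p = 0.827). By limma 0 of the 3 were called in either direction, and 0 at an unadjusted p under 0.05. Their intervals leave room for small changes only, on either side of 0. Psme1 was at 176, 179 and 174 FPKM (log2 change 0.08, interval 0.001 to 0.15, limma unadjusted p = 0.047, adjusted p = 0.0986). Psme2 was at 273, 270 and 272 FPKM (log2 change 0.03, interval -0.07 to 0.13, adjusted p = 0.668). For Psme1 each of 2 cKO-labelled libraries lay above all control TAM libraries, and the third did not.

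Of the counterparts Psmb6 rose, to 279, 291 and 277 FPKM from 256, 258 and 245 in control TAM (log2 change 0.16, adjusted p = 0.0114). This call was lost without cKO-labelled TAM replicate 2, without control TAM replicate 3, with no variance trend, and when libraries were rescaled to a common total. Psmb5 was at 77.6, 74.3 and 73.8 FPKM and Psmb7 at 15.3, 16.2 and 15.6 FPKM, and both overlapped control TAM. With Psmb6 higher, the share of Psmb9 with Psmb6 was 27.9%, 27.7% and 27.4%, below each control TAM library, by 1.56 percentage points on average. That p was 0.1, the smallest that 3 libraries against 3 allow in the exact permutation test (adjusted 0.2). The share of Psmb8 with Psmb5 differed by 0.569 percentage points and that of Psmb10 with Psmb7 by 0.103, with overlapping groups (exact permutation p = 0.2 and 0.7, adjusted 0.3 and 0.7).

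The members that passed the test were spread over the core, the cap and their chaperones. In the alpha ring Psma6 fell from 318, 313 and 304 FPKM in control TAM to 259, 260 and 262 (log2 change -0.26, adjusted p = 0.000298), and Psma7 rose from 248, 261 and 251 to 276, 277 and 264 (log2 change 0.10, adjusted p = 0.0191), a call made in 14 of 23 settings of the fit and lost without either of cKO-labelled TAM replicates 1 and 2 or control TAM replicates 1 and 3. Psma8 fell from 2.06, 1.87 and 2.16 FPKM to 0.853, 1.34 and 1.38 (log2 change -0.48, adjusted p = 0.00183), with as few as 27 recovered reads in a library. Psma3 had the highest change of the ring without passing the test, at 15.6 ± 0.946 and 17.8 ± 1.10 FPKM (SD, n = 3 each, adjusted p = 0.0715). Among the non-catalytic beta subunits Psmb3 rose from 57.4, 60.5 and 64.9 FPKM to 70.2, 74.1 and 66.6 (log2 change 0.20, adjusted p = 0.00561), while Psmb4 had the lowest change and was not called, at 111 ± 2.19 and 107 ± 0.936 FPKM (SD, n = 3 each).

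In the cap, 6 of 20 genes rose and 3 fell, near the 20.5% and 19.1% of all tested genes. The ATPase Psmc2 rose from 48.1, 49.6 and 49.5 FPKM to 57.8, 55.3 and 55.9 (log2 change 0.20, adjusted p = 0.00155), and Psmc4 from 98.7, 98.5 and 94.3 to 115, 109 and 110. Both were clear of control TAM in each library. Psmc1, with the lowest change of the ATPases, stood at 113 ± 0.637 and 112 ± 2.38 FPKM (SD, n = 3 each) and was not called. The assembly chaperone Psmd5, which was not called between resident and control TAM, rose from 16.1, 16.3 and 15.02 FPKM to 19.3, 19.8 and 17.9 (log2 change 0.25, adjusted p = 0.00292). A second assembly chaperone, Psmd9, also rose, as did the lid subunit Psmd7 and the ubiquitin receptor Psmd4, with log2 changes of 0.13 to 0.19, and each of these calls was lost without at least 3 of the 6 TAM libraries in turn. The 3 that fell were Psmd8 (153, 150 and 141 to 125, 126 and 122 FPKM, log2 change -0.25, adjusted p = 6.2e-05), the scaffold subunit Psmd1 (67.8, 65.5 and 66.9 to 57.2, 55.4 and 58.4, log2 change -0.22) and the scaffold subunit Psmd2 (132, 134 and 134 to 118, 115 and 111, log2 change -0.22). Psme2b (log2 change -0.37) and Psmc3ip (-0.38) fell as well, both at low levels and the former not without cKO-labelled TAM replicate 3 (adjusted p = 0.0553), while Psme3 and Psme4 were not called (-0.10 and -0.01).

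No member changed by 2-fold (0 higher and 0 lower, against 1.01% and 0.315% of all tested genes). Without cKO-labelled TAM replicate 2 only 4 members were called higher, and without control TAM replicate 3 only 5. With each library rescaled to a common total, 4 were called higher and 11 lower. Under that scaling the share of all calls that were higher fell from 51.8% to 32.8%, with a shift of -0.07 in the median of all genes. The calls of Psmb3, Psmc2, Psmc4 and Psmd5 (higher) and of Psma6, Psmd1, Psmd2 and Psmd8 (lower) held in all alternatives other than the 2-fold limit. The lower calls of Psma8 and Psmc3ip held in the same way, except that neither gene was tested at a minimum FPKM of 5. The shifts in acinar, neutrophil and macrophage markers given above run alongside these small changes, and their part was not tested.

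Other genes of the pathway, from fixed lists, were measured beside the members. Of 11 further proteasome genes, among them assembly factors, ubiquitin receptors and deubiquitinases, 7 rose and 0 fell in control TAM against resident libraries. Over all tested genes 39.0% were called higher and 38.1% lower. At an unadjusted p under 0.05 the counts for the 11 were 8 and 0, and their median log2 change was 0.26. Pomp, the chaperone that matures the core, rose from 35.9 to 57.9 FPKM (log2 change 0.67) and Psmg1, an alpha ring chaperone, from 15.7 to 24.3 (0.60). In cKO-labelled TAM 3 of the 11 rose and 2 fell, against 20.5% and 19.1% of all tested genes. Among the called genes were the ubiquitin receptor Adrm1 (7.08 to 9.13 FPKM, log2 change 0.33) and AI314180, the mouse symbol of the proteasome adaptor Ecm29 (5.59 to 4.58, -0.24).

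Of 7 genes for transcriptional control of the proteasome, 2 rose and 3 fell in control TAM, near the shares over all tested genes (39.0% higher and 38.1% lower). Nfe2l1, which encodes NRF1, the factor that raises proteasome genes when proteasome activity is low, fell from 22.2 to 15.2 FPKM (log2 change -0.52), and Nfyb, a subunit of the CCAAT-binding NF-Y, rose from 5.09 to 6.53 (0.31). In cKO-labelled TAM Nfe2l1 was lower again, at 12.3 FPKM (-0.29), and Nfe2l2, which encodes the stress factor NRF2, was higher (117 to 133 FPKM, 0.18). Of 10 genes for interferon signalling to the immunoproteasome, 7 rose and 3 fell in control TAM, against the same 39.0% and 38.1%. Irf1, a factor known to induce Psmb9, rose from 99.5 to 301 FPKM (1.59), whereas the receptor chain Ifngr1 fell from 435 to 234 (-0.89). In cKO-labelled TAM 3 of the 10 rose and 4 fell, against 20.5% and 19.1% of all tested genes. Ifngr1 was higher at 279 FPKM (0.25) and the kinase Jak1 lower (68.2 to 57.6 FPKM, -0.24).

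Of 15 genes for ubiquitin supply and substrate delivery, 5 rose and 6 fell in control TAM, close to the shares over all genes. The shuttle factors Ubqln2 (2.72 to 1.55 FPKM, -0.55) and Ubqln4 (13.8 to 9.29, -0.52) fell. In cKO-labelled TAM 4 of the 15 rose and 3 fell, against 20.5% and 19.1% of all tested genes. Ubqln2 (1.55 to 2.14 FPKM, 0.31) and the ubiquitin gene Ubb (196 to 242, 0.30) were higher. All 9 genes for trimming peptides and loading them on MHC class I rose in control TAM, against 39.0% of all tested genes. Their median log2 change was 0.72. Tap1, the neighbour of Psmb8 and Psmb9, rose from 48.6 to 165 FPKM (1.74), and Tapbpl, a peptide editor, from 30.8 to 70.0 (1.16). In cKO-labelled TAM 1 of the 9 rose and 5 fell, against 20.5% and 19.1% of all tested genes. Those that fell included the loading complex member Pdia3 (520 to 397 FPKM, -0.39) and the chaperone Canx (130 to 104, -0.31), in the same libraries in which no immunoproteasome gene was called.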

How the data were processed

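RNA of sorted macrophages was amplified with a SMART-Seq v4 kit and made into Nextera XT libraries, per the labels' protocols, after extraction with either of 2 kits (which library had which is not stated in the sources used here). The table deposited by the authors holds FPKM, a library-scaled level divided by gene length, in 1 column for each library. Per the submitters' processing notes, STAR and edgeR were used with mm10 (GRCm38), without stated versions or roles. The sources used here do not state gene lengths or scaling.

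Columns were matched to samples by title. Depth was recovered from the steps of low values: 85.9% to 87.3% of values between 1 and 200 reads came out whole within 0.05 of a read, so this depth is approximate and no count test was run. The squared difference between same-group libraries was 1.74 to 3.09 times that of counting noise at the median gene, and each library was kept as 1 replicate.

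Genes that reached 1 FPKM in 3 or more libraries were tested (11127 genes, all 44 members among them) with limma 3.58.1 in R 4.3.3 on log2(FPKM + 1), with 3 group means in 1 model (7 residual degrees of freedom), a variance trend and Benjamini-Hochberg adjustment over all tested genes at 0.05. The scale understates the change of low genes. Shares of pairs were tested with exact two-sided permutation tests over libraries, adjusted over 6 tests. The fit was tested on simulated data.

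The members and gene lists were chosen with earlier results of these data known. The catalytic pairs, Psme1 to Psme4 and Ahr are named by default. Elsewhere the highest and lowest change of each class and comparison are named, any member called against most of its class, and of each other list the 2 largest called changes. Psma2, Psmb2, Psmc4, Psmd4, Psmd7, Psmd9, Psmd10, Psmd14, Psme2b, Psmc3ip and, in single comparisons, Ifngr1 were named after their values were seen. The result of 1 gene that this rule would name is not reported here. Alternatives were pseudocounts of 0.1 and 0.5, no filter, a minimum FPKM of 5, rescaled totals with and without acinar genes, median-of-ratios scaling, quantile normalization, array weights, no variance trend, a fit of just the 2 groups, a replicate block, each library left out and a 2-fold limit.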

Additional observations from a re-analysis of the deposited data

Results flagged for a closer look

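Among the resident libraries, 2 ATPase genes of the 19S cap had replicate 1 apart from the others. Psmc1 was at 84.4 FPKM in resident replicate 1 and at 88.8 to 89.5 FPKM in the other 3, so that the gap to the nearest library took up 0.8591 of the range. Psmc4 was at 74.8 FPKM in resident replicate 1 and at 66.8 to 68.1 in the other 3, with a gap of 0.8389 of the range. Both are past Dixon's 95% limit for 4 libraries. The gaps point in opposite directions. Of 47 groups of values looked at in this way 2 passed the limit, where chance passes about 1 in 20. Both genes stayed higher in control TAM without that library.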

How the results depend on the processing

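In control TAM against resident libraries, no call was lost in any alternative that tested the gene at the same threshold. At a minimum FPKM of 5, Psma8, Psmc3ip and Psme4 were not tested and 40 of 41 members were called. With a library left out 42 to 43 members were called, and with a 2-fold limit 8 were. The median change of members (0.62) was 0.64 at a minimum FPKM of 5 (41 genes tested), 0.60 with median-of-ratios scaling, 0.55 quantile normalized, 0.83 rescaled to a common total, 0.73 rescaled without acinar genes, and 0.58 to 0.63 with a library left out. In cKO-labelled against control TAM, the 9 higher and 7 lower calls became 0 and 0 with a 2-fold limit, and 4 and 11 when rescaled, with or without acinar genes; 5 were higher with no variance trend, and 4 to 9 were higher with a library left out. The median (0.02) was 0.00199 with median-of-ratios scaling, and 0.00798 to 0.0351 with a library left out. It turned to -0.0169 quantile normalized, -0.0605 rescaled and -0.0595 rescaled without acinar genes. The difference in share of Psmb10 with Psmb7 (0.103 percentage points) turned to -0.00615 quantile normalized and ran from -0.0214 (without cKO-labelled TAM replicate 1) to 0.209 with a library left out. The cause was not tested. Single genes near the threshold in that comparison (Psma7, Psmb6, Psmd4, Psmd7, Psmd9) were called in 7 to 18 of 23 settings, and Psme2b in 22. Depth limits Psma8, Psmc3ip and Psme2b most, with as few as 27, 22 and 70 recovered reads in a library.

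Replicate numbers are shared between groups by the labels only: deviations of same-numbered libraries correlated at -0.06 to 0.09, and 1 of 6 correlated best with its own number. With the replicate number as a block, 42 members were higher and 0 lower in the first comparison (median 0.62) and 9 higher and 7 lower in the second (median 0.02).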
